A study of Homo sapiens with 6 samples.

Results

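Genes of the nuclear pore and of nuclear transport were examined in HL60 cells treated with tretinoin (all-trans retinoic acid) or with vehicle. They were defined by name: every HG-U133A probe set annotated to exactly 1 gene was kept if that gene was a numbered nucleoporin (NUP), an exportin (XPO), a numbered importin (IPO), a karyopherin (KPNA or KPNB), a transportin (TNPO) or a Ran-binding protein (RANBP), or was RAN, RANGAP1, RCC1, CSE1L, TPR, NUTF2, RAE1 or NXF1. This gave 55 genes with 126 probe sets, of 11963 genes and 22283 probe sets on the array. NUTF2 and NXF1 contributed none: the table used here lists no probe set for NXF1, and the probe set of NUTF2 is shared with NUTF2P4. The brightest probe set of a gene, by its mean over all arrays, stands for it unless stated.

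HL60 is an established human promyelocytic leukemia line that tretinoin drives toward granulocytes. The 3 tretinoin arrays came from cells given 1 μmol/l tretinoin in dimethyl sulfoxide (DMSO), and the 3 vehicle arrays from cells given DMSO alone, with DMSO at a final 0.1% and a treatment of 5 days in both conditions. RNA of each condition was amplified and labeled in 3 reactions whose products were combined, and that pool was put on the 3 arrays, so p-values measure the spread between hybridizations of a pool and not between cultures. The number of arrays limits the precision.

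The nuclear pore is a ring of nucleoporins set in the nuclear envelope, through which proteins and RNA pass. Importins and exportins carry cargo through it, and the small GTPase RAN gives the traffic its direction: RCC1 loads RAN with GTP inside the nucleus, and RANGAP1 with RANBP1 triggers GTP hydrolysis outside. Growing and dividing cells build new pores each cycle. The nucleus of the granulocyte series condenses and becomes lobed as the cells mature.

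Arrays were brought to a common mean, that of DMSO replicate 1 (factors 0.820 to 1.36), and signals below 20 were set to 20, here called the floor. Between 12239 and 13397 probe sets exceeded the floor on each array. For the ACTB control, 3' signal over 5' signal, which tracks RNA integrity and labeling, came to 1.38 to 1.42 in vehicle and 1.14 to 1.17 in tretinoin. The same ratio for GAPDH was 1.06 to 1.17 in vehicle and 1.15 to 1.19 in tretinoin. The part of these differences in the results was not tested. Of 9 measured myeloid markers all exceeded the floor on at least 3 arrays, 7 being called lower (77.8%) and SPI1 higher (11.1%). Over all genes tested, 14.3% were called lower and 13.5% higher. ELANE, among the 7, was at the floor on all 3 tretinoin arrays and could only be lower. The summed signal of the 9 was 4906 to 5547 in vehicle, of which MPO alone gave 2914 to 3367.5, and 799 to 864 in tretinoin. Markers of T cells, B cells, erythroid cells, epithelial cells and fibroblasts were measured too, 22 in number. Of these, 11 were at the floor on all 6 arrays, CD3G, CD79B and EPCAM among them. The 9 that could be tested exceeded the floor on at least 3 arrays, and none was called lower or higher. CD3E, HBB, KRT18, COL1A1 and DCN were above it on all 6 arrays, HBB at 50.4 to 79.2 and COL1A1 at 61.1 to 97.5.

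Most of the pore and transport genes had lower signals after tretinoin, 41 of the 52 tested having a negative log2 change. A gene was called where limma gave an adjusted p under 0.05 over all 13374 probe sets tested (those above the floor on at least 3 arrays) together with a change in the fit of 1.5-fold or more. Of the 55 genes, 52 could be tested, and 23 of these were called lower, 2 were called higher and 27 were not called. That is 44.2% lower and 3.85% higher, against a background of 14.3% lower and 13.5% higher over the 8161 genes tested. Called in either direction were 25 of 52, or 48.1%, against 27.9%. Without the fold minimum 29 were lower and 3 higher, against a background of 16.9% and 15.7%. The median log2 change of the 52 was -0.54, and that of all genes was -0.04. On tretinoin arrays 1 to 3, the median deviation of the 52 from the vehicle mean was -0.52, -0.58 and -0.56 (log2). That of the vehicle arrays lay between -0.05 and 0.04. Over all genes tested, the same median on tretinoin arrays 1 to 3 was -0.13, 0.08 and -0.08. All 3 tretinoin arrays lay below all 3 vehicle arrays for 35 of the 52, or above them for 5, where the background over all genes was 24.7% below and 21.5% above. In such bulk RNA, fewer cells of a type and less RNA per cell cannot be told apart.

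**Figure D1:**
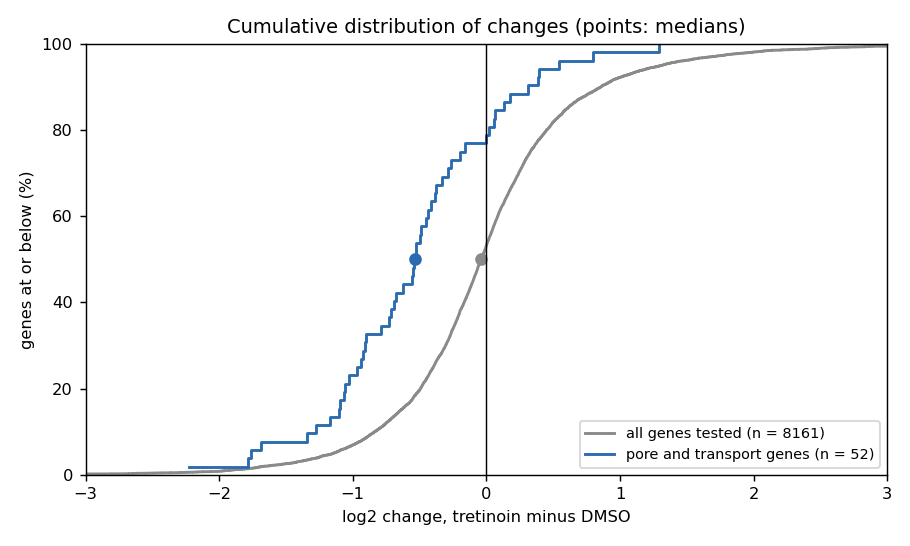
Cumulative percentage of genes (y axis) at or below each fitted log2 change, tretinoin minus DMSO (x axis), for the 52 pore and transport genes tested (blue) and all 8161 genes tested (gray); points mark the medians. The blue curve lies to the left of the gray one, with medians of -0.54 and -0.04.

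Of 5 Ran cycle genes tested, 4 were called lower (80%) and none higher, against 14.3% and 13.5% over all genes. RANBP1, the cofactor of RAN GTP hydrolysis, read 761, 744 and 819 on vehicle arrays 1 to 3 and 186, 133.1 and 182 on tretinoin arrays 1 to 3. Every tretinoin array thus lay far below every vehicle array. The mean fell 4.63-fold, from 775 ± 39.3 to 167 ± 29.6 (SD, n = 3 arrays each; limma adjusted p = 0.000138). With the mean of both its tested probe sets the log2 change was -1.41, against -2.23 for the brightest. RANGAP1, the GTPase-activating protein, read 110.7, 116.5 and 110.7 in vehicle and 46.2, the floor and 46.1 in tretinoin. Because tretinoin replicate 2 was at the floor, its fall is given as at least 3.01-fold (adjusted p = 0.00716). RCC1, the nucleotide exchange factor, went from 123.4, 107.0 and 140.4 to 45.5, 60.6 and 59.4, a fall of 2.24-fold (adjusted p = 0.00233). RAN itself read 1181, 1115 and 1181 in vehicle and 530.1, 524 and 566 in tretinoin. Its mean fell 2.15-fold, from 1159 ± 38 to 540.1 ± 22.5 (adjusted p = 0.000525). The second tested probe sets of RAN, RCC1 and RANGAP1 were called lower too, with log2 changes of -1.49, -1.20 and -1.46. The second tested probe set of RANBP1 was dim, with 3 of its 6 arrays at the floor, and was not called (log2 change -0.59, adjusted p = 0.140). RANBP3, a cofactor of the exportin XPO1, was the remaining tested member of this group and was not called (log2 change 0.39 ± 0.33 SE, adjusted p = 0.436). Its vehicle arrays were scattered between the floor and 48.9. The probe set that NUTF2, the import factor of RAN, shares with NUTF2P4 went from 340 ± 9.17 to 217 ± 24.2 (1.56-fold, adjusted p = 0.00902) and is counted in no total here. In the RefSeq gene table, without regard to strand, the span of RANBP1 overlaps TRMT2A, that of RCC1 overlaps SNHG3 and that of RANGAP1 overlaps ZC3H7B, and the part of these neighbors in the signals was not tested.

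**Figure D2:**
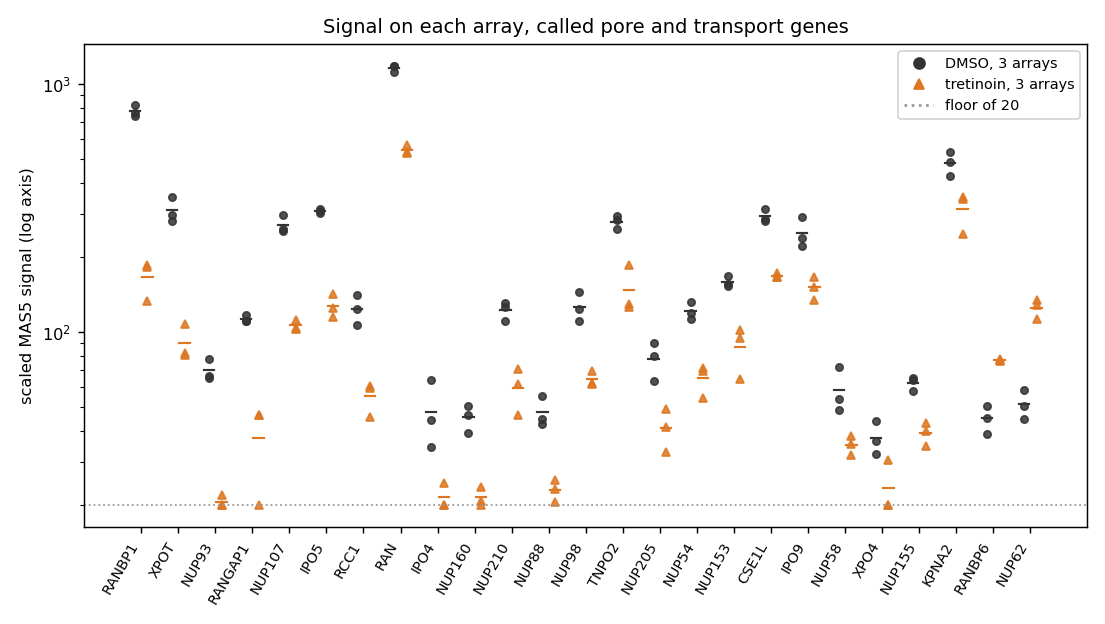
Scaled MAS5 signal (y axis, log scale) on each of 3 vehicle arrays (black circles) and 3 tretinoin arrays (orange triangles) for the 25 called genes, ordered by fitted change, with bars at the means and the floor of 20 dotted. The conditions do not overlap for any of the 25, but these were called on the same arrays, so the gap adds no support. Over all genes tested, tretinoin lay wholly below vehicle for 24.7% and wholly above for 21.5%. RANBP6 and NUP62 at the right are the only ones of the 25 higher in tretinoin.

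Promoter sequence is shown for 7 of the genes so that the starts of RAN, RCC1 and RANGAP1, of the tRNA exporter, of a scaffold nucleoporin and of an importin alpha, all lower in tretinoin, can be set beside NUP62, which was higher. Each line gives the 150 bases before the outermost annotated start, 5' to 3' on the strand of the gene, from RefSeq on GRCh38.p14. That start need not be the one used in HL60 cells, and other starts of a gene were not searched. The positions are chr12:130871916-130872065, plus strand for RAN, chr1:28505893-28506042, plus strand for RCC1, chr22:41302370-41302519, minus strand for RANGAP1, chr12:64404242-64404391, plus strand for XPOT, chr12:68686828-68686977, plus strand for NUP107, chr17:68035585-68035734, plus strand for KPNA2 and chr19:49929505-49929654, minus strand for NUP62. Capitals mark any of 5 motifs on either strand: the E-box CACGTG; the NF-Y box CCAAT; the ETS form CCGGAAG; GCATGCGC from the palindrome of NRF1; and TTTGAA, a form of the CHR element of cell cycle genes.
RAN: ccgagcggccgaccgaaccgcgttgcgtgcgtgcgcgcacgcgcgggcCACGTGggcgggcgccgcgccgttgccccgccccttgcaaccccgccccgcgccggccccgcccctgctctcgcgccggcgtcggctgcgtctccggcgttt
RCC1: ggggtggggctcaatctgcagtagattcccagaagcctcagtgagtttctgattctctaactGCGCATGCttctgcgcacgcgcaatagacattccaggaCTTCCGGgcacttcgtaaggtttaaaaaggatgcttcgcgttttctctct
RANGAP1: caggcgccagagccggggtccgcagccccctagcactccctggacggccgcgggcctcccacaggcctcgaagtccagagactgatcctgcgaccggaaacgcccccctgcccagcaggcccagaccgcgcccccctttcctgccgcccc
XPOT: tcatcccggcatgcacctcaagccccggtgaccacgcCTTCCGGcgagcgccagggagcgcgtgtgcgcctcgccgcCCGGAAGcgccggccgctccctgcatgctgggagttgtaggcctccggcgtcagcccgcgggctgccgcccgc
NUP107: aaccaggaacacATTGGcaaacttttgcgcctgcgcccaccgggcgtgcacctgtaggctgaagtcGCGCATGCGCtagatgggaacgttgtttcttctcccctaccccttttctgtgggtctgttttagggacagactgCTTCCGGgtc
KPNA2: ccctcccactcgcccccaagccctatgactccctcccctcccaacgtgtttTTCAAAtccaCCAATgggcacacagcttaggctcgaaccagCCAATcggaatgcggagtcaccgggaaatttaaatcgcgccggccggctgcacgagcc
NUP62: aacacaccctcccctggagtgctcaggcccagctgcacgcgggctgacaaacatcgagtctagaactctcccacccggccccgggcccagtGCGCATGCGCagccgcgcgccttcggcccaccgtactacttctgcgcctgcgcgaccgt
The E-box of RAN began 102 bases before the outermost start, and RANGAP1 held none of the 5 motifs in the bases before its own. RCC1 held 1 ETS form and 1 NRF1 match, while XPOT held 2 ETS forms. KPNA2 held 2 NF-Y boxes and 1 CHR form, and NUP107 held 3 different motifs. The NRF1 letters were present on both strands, overlapping, in NUP107, which fell, and in NUP62, which rose. Over the full windows, 250 bases before to 50 after the start, 49 of the 55 genes matched the RefSeq table, 22 of them called lower. The ETS form was in 7 of those 22, against 18.0% of the 6733 tested genes with a window and 10.6% of all 27305 windows. The NF-Y box was in 11 of the 22, against 37.6% and 35.7%. The CHR form was in 6 of the 22, against 10.4% and 15.5%, and the E-box was in 3 (IPO4, RAN and TNPO2), against 10.3% and 7.41%. The NRF1 letters were in 2 of the 22 (NUP107 and RCC1) and in NUP50, NUP62 and RANBP3 besides, against 5.24% and 3.29%. Over all 49 genes with a window, called lower or not, the NF-Y box was in 23 and the ETS form in 12. The CHR form was in 8 of the 49 and the E-box in 7, IPO7, KPNA3, NUP188 and NUP50 among them, which were not called. The motifs were chosen after the changes were known, and a match is a run of letters only.

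Of 23 nucleoporins tested, 11 were called lower (47.8%) and 1 higher (4.35%), against 14.3% and 13.5% over all genes. The Y complex, named for its shape, builds the outer rings of the pore. The 6 NUP-named members measured had tretinoin arrays wholly below the vehicle arrays, as 24.7% of all genes did. Of the 6, 2 (33.3%) passed the fold minimum and were called lower, against 14.3% of all genes. Among subunits of the complex with other names, SEH1L was called lower too, and SEC13 overlapped between conditions (log2 change 0.05, adjusted p = 0.893). NUP107 read 296, 254 and 259 in vehicle and 103.2, 112.2 and 103.8 in tretinoin. The fall was 2.54-fold, from 269.9 ± 23.0 to 106 ± 5.04 (SD, n = 3, limma adjusted p = 0.000332). NUP160 went from 50.4, 39.0 and 46.3 to the floor, 23.7 and 20.9, at least 2.1-fold lower (adjusted p = 0.00186). NUP85, NUP43, NUP133 and NUP37 had adjusted p-values of 0.0125 to 0.0393 but log2 changes of only -0.56 to -0.50. They are not called, since 1.5-fold is 0.58 on that scale.

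The inner ring links the outer rings to the channel, and 3 of its 4 measured members were called lower (75%, against 14.3% over all genes). NUP93, a linker of that ring, read 78.0, 65.1 and 66.7 in vehicle and 21.9, the floor and the floor in tretinoin. It was at least 3.39-fold lower (adjusted p = 0.000139), with 2 of 3 tretinoin arrays at the floor. NUP205, a large scaffold protein, went from 79.6, 63.4 and 89.8 to 41.4, 49.0 and 32.9 (1.89-fold, adjusted p = 0.0123). NUP155 went from 57.6, 65.3 and 64.1 to 39.9, 34.6 and 43.0 (1.59-fold, adjusted p = 0.00924). NUP188, the partner scaffold of the same ring, lay just under the fold minimum at a log2 change of -0.55 ± 0.13 SE (adjusted p = 0.0151). NUP210, which anchors the pore in the membrane, fell 2.05-fold, from 111.1, 130.8 and 125.5 to 70.9, 61.8 and 46.3 (adjusted p = 0.00476). All 5 of its tested probe sets had negative changes, and 3 were called lower.

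The central channel is lined by nucleoporins rich in phenylalanine-glycine repeats, and its members moved in opposite directions. NUP62, which forms a complex with NUP54 and NUP58, rose. It read 44.7, 58.5 and 50.4 in vehicle and 128.2, 135.0 and 112.3 in tretinoin. That was a rise of 2.45-fold, from 51.2 ± 6.91 to 125 ± 11.7 (adjusted p = 0.000836). A second probe set of NUP62 was called higher as well, with a log2 change of 1.69 ± 0.35 SE. On that probe set NUP62 read 46.4, the floor and 22.9 in vehicle and 108.7, 65.7 and 100.6 in tretinoin. Its partners fell: NUP54 went from 131.7, 113.0 and 119.3 to 54.3, 71.2 and 69.6 (1.86-fold, adjusted p = 0.00425). NUP58 went from 48.6, 53.6 and 72.4 to 35.3, 32.0 and 38 (1.66-fold, adjusted p = 0.0219), a call that was lost without DMSO replicate 3 (log2 change -0.54) and without tretinoin replicate 1 or 2 (adjusted p = 0.0610 and 0.0578). In the RefSeq gene table the span of NUP62 overlaps those of IL4I1 and ATF5, and a probe set annotated to both IL4I1 and NUP62 was at the floor on all 6 arrays.

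NUP98, whose precursor is cut into a channel protein and a Y complex protein, gave probe sets that disagreed. The brightest went from 123.3, 110.5 and 145.5 to 69.6, 61.8 and 62.0, a fall of 1.96-fold (adjusted p = 0.00271). The other 2, which were dimmer, had log2 changes of 0.09 and 0.28 and were not called (adjusted p = 0.770 and 0.527). With the mean of all 3 in place of the brightest, the log2 change was -0.20 (adjusted p = 0.299), so the call rests on 1 probe set. RAE1, an mRNA export factor that binds the NUP98 protein, was not called, and its arrays overlapped between conditions (log2 change -0.37, adjusted p = 0.308).

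At the nuclear basket, NUP153, its base, went from 156.3, 153.3 and 168.2 to 94.6, 64.6 and 101.8 (1.83-fold lower, adjusted p = 0.0112). TPR, which forms the basket filaments, was not called on its brightest probe set (log2 change 0.18, adjusted p = 0.400) but was called lower on another (log2 change -0.60, adjusted p = 0.0217). NUP50, a basket protein that helps release import cargo, was not called (log2 change 0.31, adjusted p = 0.149). Its other tested probe sets had log2 changes of 0.43 and -0.57, neither called. On the cytoplasmic face, NUP88 fell 2.05-fold, from 55.2, 44.5 and 42.5 to 20.7, 23.3 and 25.4 (adjusted p = 0.00259). Those tretinoin signals lie close to the floor, and with a floor of 40 the fall was smaller and was not called (log2 change -0.24). NUP214, the partner that NUP88 anchors at the same site, read 110.8, 96.8 and 104.8 in vehicle and 136.1, 184.7 and 139.0 in tretinoin. Its arrays did not overlap, and its change of 1.47-fold upward (adjusted p = 0.0385) missed the fold minimum. The second tested probe set of NUP214 had a log2 change of -0.21, with overlapping arrays (adjusted p = 0.785). RANBP2, the main component of the cytoplasmic filaments, had log2 changes of 0.38, -0.01 and -0.33 on 3 probe sets, none called, and it shares sequence with the RGPD genes. NUP42 was not called (adjusted p = 0.990), and NUP62CL was at the floor on all 6 arrays.

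**Figure D3:**
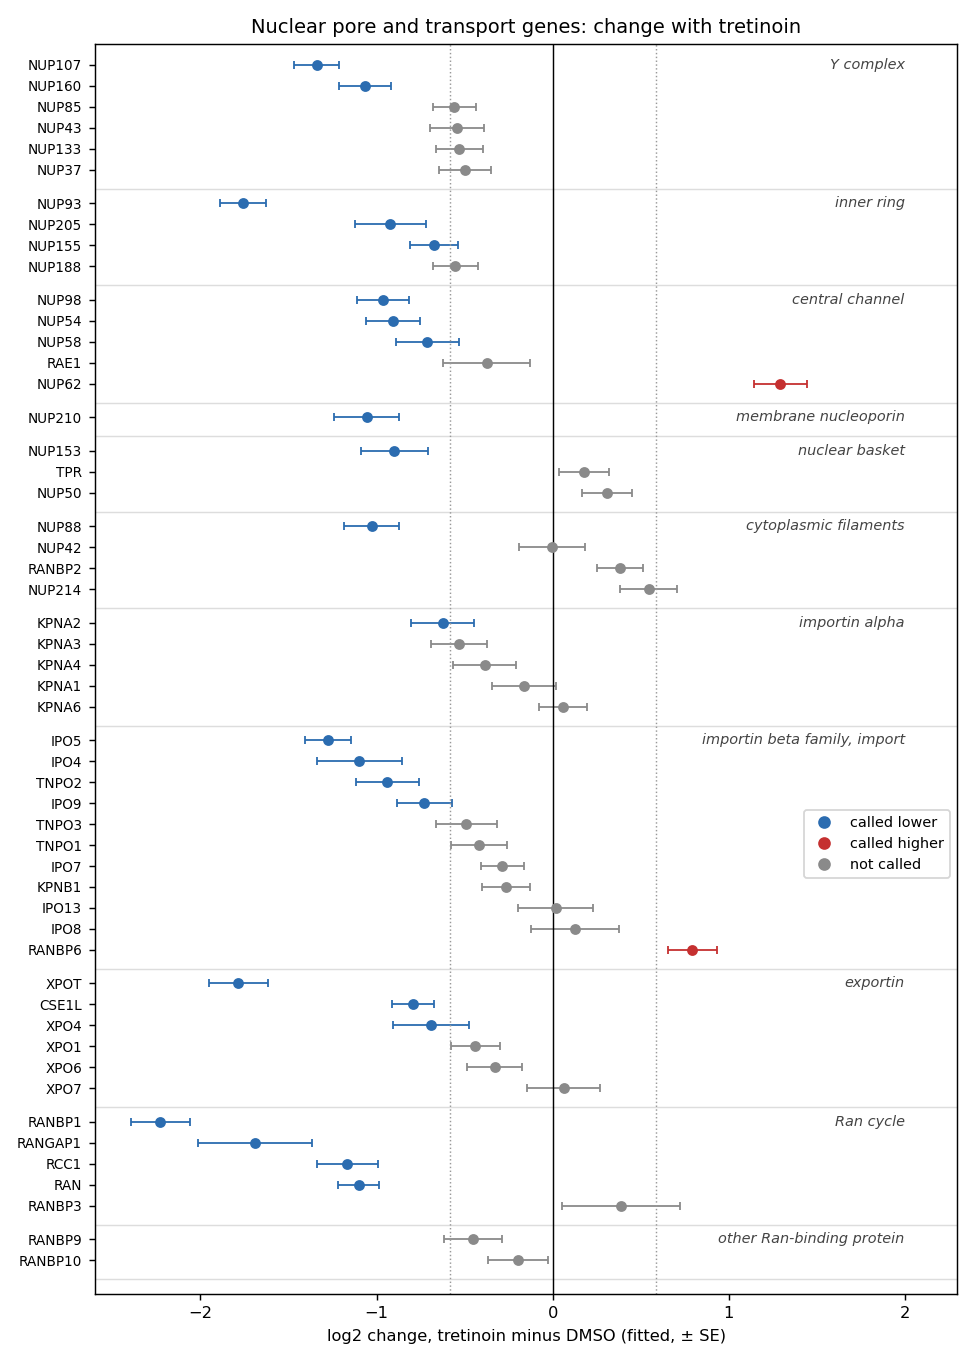
Fitted log2 change, tretinoin minus DMSO, with its standard error (x axis) for the 52 genes tested, grouped by role; blue were called lower, red higher and gray were not called, and dotted lines mark 1.5-fold. RANBP1 lies at -2.23, the 6 NUP-named Y complex members lie left of 0, and NUP62 and RANBP6 stand alone in red.

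Of 22 import and export receptors tested, 8 were called lower (36.4%) and 1 higher (4.55%), against 14.3% and 13.5% over all genes. Of the importin alphas, adaptors that recognize the classical nuclear localization signal, 5 could be tested. Only 1 of these was called (20%, against 14.3% lower over all genes), namely KPNA2. It read 425.9, 483.5 and 529.0 in vehicle and 248, 344 and 349 in tretinoin, a fall of 1.53-fold (adjusted p = 0.0349). That was the called change nearest to the fold minimum, and NUP85 at 1.47-fold lay just outside it. The KPNA2 call was lost without DMSO replicate 2 or 3 and without tretinoin replicate 1 or 3 (adjusted p = 0.0900, 0.102, 0.0901 and 0.0510 in that order). KPNA3 had an adjusted p of 0.0420 with a log2 change of -0.53. KPNA4, KPNA1 and KPNA6 had log2 changes of -0.38, -0.16 and 0.06 and overlapped between conditions. KPNA5 was at the floor on all 6 arrays.

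Of 11 importin beta type receptors, 4 were called lower (36.4%) and 1 higher (9.09%), against 14.3% and 13.5% over all genes. IPO5, which imports ribosomal proteins and histones among other cargo, read 307, 312 and 301 in vehicle and 142.4, 114.7 and 124.4 in tretinoin. It fell 2.41-fold, from 306.7 ± 5.78 to 127 ± 14.1 (adjusted p = 0.000478), and all 4 of its tested probe sets were called lower. IPO4, a histone importer, went from 34.2, 63.9 and 44.0 to the floor, 24.5 and the floor, at least 2.20-fold lower (adjusted p = 0.0121). TNPO2, a transportin of RNA-binding proteins, went from 293.1, 281.8 and 259.0 to 186.4, 129.7 and 125.9 (1.89-fold, adjusted p = 0.00738). IPO9 went from 291.8, 221.7 and 239.8 to 166.8, 134.9 and 151.6 (1.66-fold, adjusted p = 0.0117). Of the 11 receptors, 8 had tretinoin arrays wholly below the vehicle arrays, against 24.7% of all genes. The 4 called lower were among them, as calls on the same arrays make likely.

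RANBP6, a relative of IPO5, went the other way. It read 38.9, 45.0 and 50.4 in vehicle and 77.9, 76.6 and 77.3 in tretinoin, a rise of 1.72-fold (adjusted p = 0.00471). Without scaling of the arrays its log2 change was 0.59 and it was not called (adjusted p = 0.114). KPNB1, importin beta itself, was not called on its brightest probe set, with a log2 change of -0.27 (adjusted p = 0.195). All 6 of its tested probe sets had negative changes, and 2 of them were called lower (log2 changes -0.84 and -0.87). TNPO3, TNPO1, IPO7, IPO13 and IPO8 were not called, with log2 changes from -0.49 to 0.13. IPO7 too had 1 of its 4 tested probe sets called lower.

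Among exportins, XPOT, which carries tRNA out of the nucleus, read 295, 281 and 351.2 in vehicle and 80.9, 82.1 and 107.2 in tretinoin. The fall of 3.43-fold, from 309 ± 37.0 to 90.1 ± 14.8 (SD, n = 3, adjusted p = 0.000314), held its call under all 22 alternatives. CSE1L, which returns importin alpha to the cytoplasm, went from 313, 279.5 and 285 to 166, 166.5 and 173 (1.73-fold, adjusted p = 0.00244). All 3 of its tested probe sets were called lower, with log2 changes of -0.79, -1.07 and -1.45. XPO4, an exportin of eIF5A, went from 43.9, 32.3 and 36.2 to the floor, 30.5 and the floor, at least 1.59-fold lower (adjusted p = 0.0463). That call was lost under 12 of the 20 alternatives in which XPO4 could be tested. XPO1, the general exporter of proteins with leucine-rich signals, went from 480.3, 447.6 and 564.4 to 341.6, 383.0 and 372.1 and was not called (log2 change -0.44, adjusted p = 0.0501). XPO6, the actin exporter, and XPO7 were not called (log2 changes -0.33 and 0.06). RANBP17 exceeded the floor only on tretinoin replicate 2, at 35.7, and was not tested. RANBP9 and RANBP10, Ran-binding scaffolds outside the transport machinery, were not called on their brightest probe sets (log2 changes -0.45 and -0.20), though RANBP9 had 1 of 3 tested probe sets called lower.

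The brightest probe sets were not alone in their direction. Of the 30 genes with at least 2 tested probe sets, 23 had all of them on the same side of 0. Those of NUP98, NUP50, TPR, NUP214, RANBP2, TNPO1 and XPO7 lay on both sides. Of the 30 genes, 13 were called. Of these, 10 had another probe set called the same way, the exceptions being RANBP1, NUP98 and KPNA2. Among the 10, the other probe set of NUP160 was at the floor on all 3 tretinoin arrays. It passed the filter on its vehicle arrays alone and could only be lower, and it also counts in the total by probe set. The other probe set of IPO9 came close to this, with 48.9, 31.0 and 37.5 in vehicle and the floor, 20.3 and the floor in tretinoin. Probe sets of 1 gene read the same RNA, and the share over all genes was not computed. Another 4 genes, KPNB1, IPO7, TPR and RANBP9, were called lower on a probe set other than the brightest. Counted by probe set, 41 of 107 were called lower and 3 higher, against a background of 13.8% lower and 13.6% higher over all 13374. Without scaling of the arrays that background became 17.4% lower and 8.59% higher.

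**Figure D4:**
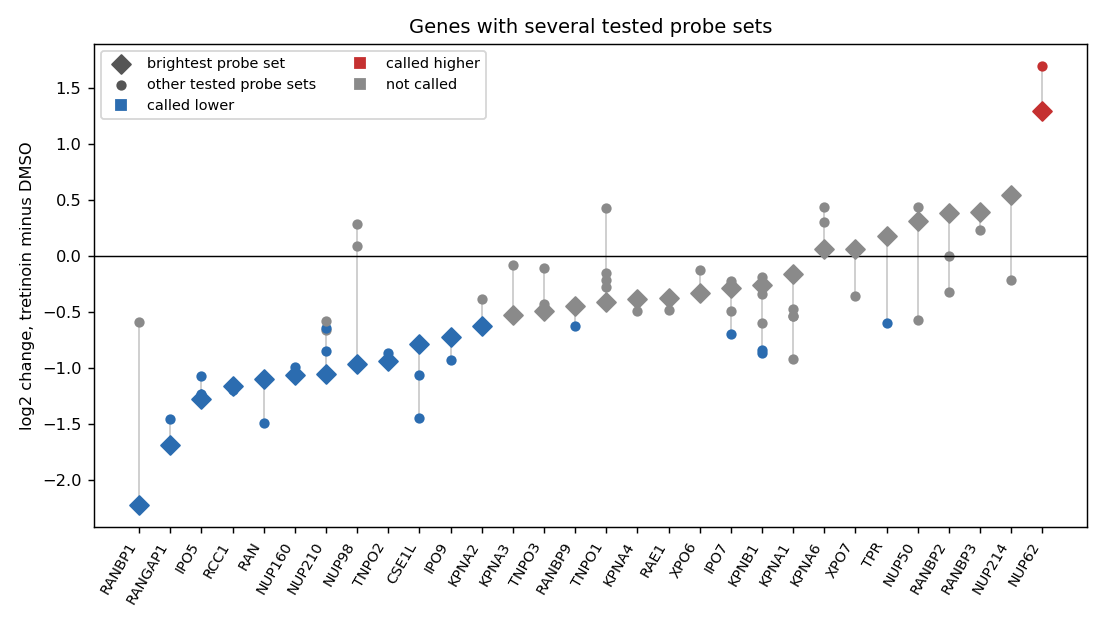
Fitted log2 change, tretinoin minus DMSO (y axis), of every tested probe set of the 30 genes with at least 2 (x axis, ordered by the brightest); diamonds are the brightest probe sets and circles the others, blue called lower, red higher and gray not called. IPO5 and CSE1L are blue throughout, while NUP98 and TPR have probe sets on both sides of 0.

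Genes of the same machinery that the naming rule leaves out were listed separately. Their counts stand against the same 14.3% lower and 13.5% higher over all genes tested. Of 16 other pore and transport genes tested, 5 (31.2%) were called lower and none higher, with a median log2 change of -0.20. SEH1L, the Y complex subunit that sits beside NUP85, fell 2.56-fold, from 305, 275 and 286 to 118.6, 106.7 and 112.9 (limma adjusted p = 0.000263). NDC1, a membrane nucleoporin, fell 2.04-fold (60.4 ± 6.58 to 29.6 ± 2.55), and NXF3, of the mRNA export receptor family, fell 3.02-fold (133.4 ± 4.06 to 44.2 ± 9.13). Of 15 genes of mRNA export complexes, 4 (26.7%) were lower and none higher, with a median of -0.40. DDX39A, an RNA helicase of mRNA export, fell 2.54-fold (377 ± 25.8 to 149 ± 15.2), PCID2 fell 2.04-fold and the splicing factor SRSF7 fell 1.98-fold. Of 9 genes of SUMO conjugation, the modification carried by RANGAP1 at the pore, 2 were lower (22.2%) and 1 was higher (11.1%), with a median of -0.09, close to those shares. SAE1, a subunit of the SUMO-activating enzyme, fell 1.65-fold, and the protease SENP3 was at least 1.87-fold lower. The SUMO ligase PIAS1 rose 1.95-fold, from 107.4, 90.2 and 110.8 to 187.6, 189.6 and 222.9.

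Of 13 genes of the nuclear lamina and membrane tested, 5 were lower (38.5%) and 3 were higher (23.1%), against 14.3% and 13.5% over all genes, with a median log2 change of -0.19. SUN1, among the 5, was at the floor on all 3 tretinoin arrays. It passed the filter on its vehicle arrays alone and could only be lower. LMNB1, a B-type lamin, read 160.4, 158.2 and 119.9 in vehicle and 41.1, 49.0 and 27.8 in tretinoin, a fall of 3.72-fold (adjusted p = 0.00105). NEMP1 fell 3.03-fold and LMNB2, the other B-type lamin, fell 2.64-fold. LBR, the lamin B receptor, whose loss leaves neutrophil nuclei without lobes in Pelger-Huët anomaly, rose. It read 781, 693 and 809 in vehicle and 1633, 1481 and 1622 in tretinoin, a rise of 2.08-fold (adjusted p = 0.000937). TOR1AIP1, which binds lamins and activates torsin A, rose 1.81-fold, and SUN2, a bridge from the lamina to the cytoskeleton, rose 1.74-fold.

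**Figure D5:**
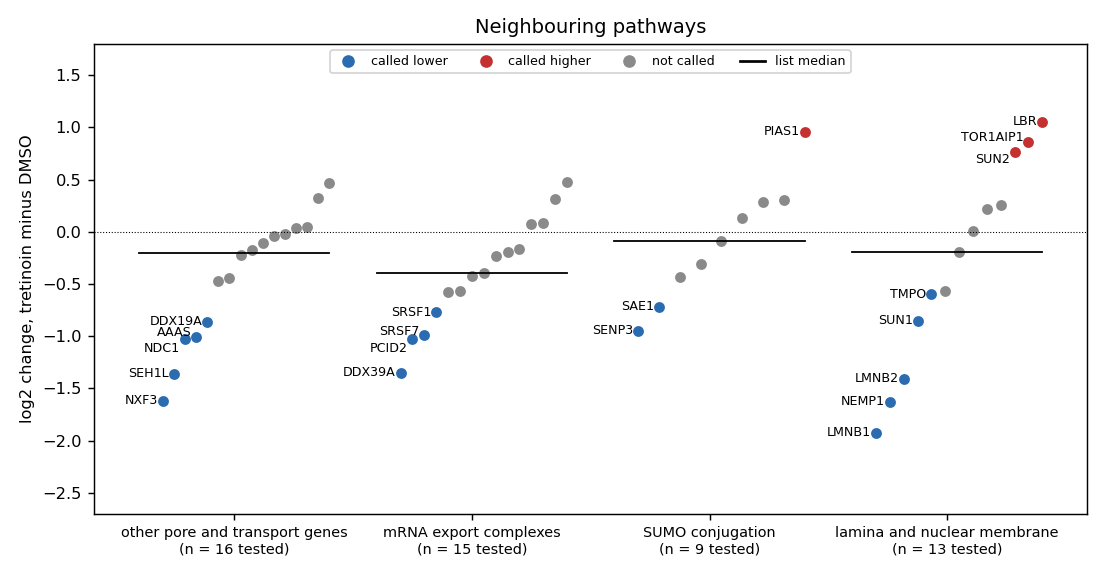
Fitted log2 change, tretinoin minus DMSO (y axis), of each tested gene in 4 related lists (x axis); blue were called lower, red higher and gray were not called, called genes are named and black lines are list medians. LMNB1 is the lowest point at -1.92, and LBR the highest at 1.05.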

How the data were processed

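Total RNA was amplified, labeled and hybridized to Affymetrix HG-U133A arrays by the authors. As deposited by the authors, values are linear signal intensities from MAS5 before any scaling between arrays. Each array was here multiplied to the mean of DMSO replicate 1, floored at 20 and taken to log2, after the study's methods. Condition means were estimated in R 4.3.3 using lmFit, then eBayes, from limma 3.58.1, and p-values were adjusted by Benjamini-Hochberg over all 13374 probe sets above 20 on at least 3 arrays. Folds are ratios of mean floored signals, given as "at least" where an array of the lower condition was at the floor. On simulated data of that size, 100 probe sets were given a change of 1 and 100 a change of 1.5 on the log2 scale. Of these, 76% and 96% were recovered, with 13 false calls. Recovery of dim probe sets by themselves was not tested, nor was recovery with as many changed probe sets as were called here. Because MAS5 subtracts mismatch probe signal, dim values are noisy, and the floor understates their change.

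Probe sets were named by GEO's platform annotation, with symbols updated through Entrez IDs (19059 of 19071 with a single symbol matched RefSeq). A further 1043 had several symbols and 2169 had none. RefSeq promoters were searched with Python 3.11.15 and pandas 2.3.3, and figures drawn with matplotlib 3.10.9. The genes and lists were chosen with earlier results of these data known. By the naming rule, every called member, members at the fold minimum, untested members, members with probe sets of opposite sign and up to 3 genes per direction of each other list are named. Others are named where values of a role are given in full.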

Additional observations from a re-analysis of the deposited data

How the results depend on the processing

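Across 22 alternatives, no called member changed sign, and 498 of 542 values of the 25 called members kept their call. Both tallies were partly fixed in advance. Alternatives that altered only the variance estimate, the replicate block or the fold minimum kept the fitted changes, so no sign could change there. With no minimum fold no call could be lost. Taking the probe set brightest in DMSO gave the same counts and median as the main setting. The calls of NUP107, NUP160, NUP93, NUP62, NUP210, IPO5, XPOT, RAN, RANBP1 and RCC1 held wherever they could be tested, while XPO4, KPNA2 and NUP58 lost theirs most often. The count of 23 lower and 2 higher became 12 and 1 with a minimum fold of 2, which also took the genes called in the other lists from 20 to 10. The 12 were 23.1% of the members tested, where 6.43% of all probe sets were lower and 7.57% higher. Without scaling, 29 members (55.8%) were lower and 1 (NUP62) was higher, against 17.4% and 8.59% of all probe sets. The member median log2 change was -0.74. The median of all probe sets then moved from -0.03 to -0.21, so that the members lay 0.53 below it, against 0.51 with scaling. When 16 was added to each signal, with no floor, the member median was -0.46. With no filter on low values 16 members (29.1%) were lower, against 6.07% of the 22283 probe sets tested.

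Leaving out 1 array at a time gave 21 to 24 members lower, 2 to 3 higher, a median of -0.56 to -0.52, and 17 to 21 genes called in the other lists. The lower share was 40.4% to 46.2% of the members, against 11.9% to 15.7% of all probe sets. Of all probe sets, 11.3% to 13.6% were higher. The third higher member was RANBP3, called without DMSO replicate 1. Replicate numbers in the titles did not pair the arrays (correlation of deviations -0.03, -0.01 and 0.07 for numbers 1 to 3). With the replicate number as a block, 22 members (42.3%) were lower and 2 higher, XPO4 losing its call, against 13.1% and 13% of all probe sets. Signals near 20 limit what can be said of NUP160, NUP88, NUP93, IPO4 and XPO4.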
